A study of Mus musculus with 12 samples.

Results

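The arrays described here are the 8 of 12 in the series whose liver RNA came from mice labelled MycF/F,ERT2-Cre. Of these, 4 came from mice fed 0.1% Wy-14643 in the diet for 2 days and 4 from mice on control diet for as long, and they were chosen by these labels alone. All were whole livers of the C57BL/6 strain. Both diet groups carry floxed alleles of Myc and ERT2-Cre, a Cre recombinase fused to an estrogen receptor domain that holds it inactive until tamoxifen or a similar ligand binds, so the groups differ by label in the diet alone. The labels give the genotype as knockout, and give no tamoxifen treatment, promoter of the Cre, sex, age or animal number. Nothing in them says that the 4 samples of a group came from separate animals, so p-values measure the spread between these samples, which may be technical. The other 4 arrays are MycF/F livers without the Cre, 3 on Wy-14643 and 1 on control diet, the last labelled as pooled liver.

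Wy-14643 (pirinixic acid) is an agonist of PPARA, the nuclear receptor that binds DNA as a pair with RXRA and turns on genes for the uptake, transport and oxidation of fatty acids. In rodent liver such agonists make peroxisomes multiply and, over a longer time, make the organ grow and form tumours, and MYC has been studied as a driver of that growth. Ligand-bound PPARA also lowers the output of many genes for inflammation and plasma proteins. The comparison asks which genes the drug diet moved in livers of this genotype within 2 days.

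Each array measured one liver RNA, labelled with Cy5, against the same pooled liver reference, labelled with Cy3. Values below are log2 ratios of a liver to that reference, normalised within the array, and a change is the mean of the drug-fed livers minus the mean of the control-fed livers. A change of 1 on this scale is a factor of 2. Values are given in the order of the replicate numbers in the labels, by which single arrays are called control array 1 or drug array 1. The 8 arrays had a median spot signal of 2.64 to 4.82 times the local background, 65.3% to 77.1% of spots well above background, and no saturated spot. Spots that the scanner software marked as outliers made up 5.47% to 8.35% of an array on slide 1 and 0.904% to 1.84% on slides 2 and 3, and were left out, so some genes have fewer than 4 values in a group. Each of the 3 slides held both diets, though not in equal numbers. Slide 1 held control arrays 1 and 2 and drug array 1, and slide 2 held control array 3 and drug array 2. Slide 3 held control array 4 and drug arrays 3 and 4. The main fit had no term for the slide. Over the 25261 genes or unnamed probes that were kept, the control arrays correlated with each other at a mean r of 0.69 (0.626 to 0.84). The drug arrays did so at 0.792 (0.697 to 0.887), and arrays of different diets at 0.349 (0.123 to 0.567).

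Of 25167 genes or unnamed probes that could be tested, 4125 passed at a limma adjusted p under 0.05, a background of 16.4%. Of these, 2295 were higher (9.12%) and 1830 lower (7.27%) on Wy-14643. Among genes with a symbol 21.2% passed, 11.5% higher and 9.72% lower, and these are the shares to read the lists below against. At least 2-fold changes numbered 374 higher and 323 lower, at least 4-fold changes 71 and 46, and at least 8-fold changes 27 and 7, so the large changes leaned towards rises. With each array centred on its median in place of the loess curve, 607 were higher and 287 lower, and with the Cy5 signal alone 621 and 666. Under these 2 scalings 65 and 68 of the 104 list counts, higher and lower counted apart, moved by more than 1.5 times, so the counts below are those of the loess fit. The median change over all genes tested was 0.03, with a median SE of 0.107. Detection followed brightness: in 4 equal classes of brightness, 1.6% of the dimmest passed and 35.6% of the brightest. Within each slide, the called genes with a value there had the sign of the fit for 3414 of 3426 on slide 1, 3921 of 3942 on slide 2 and 4067 of 4068 on slide 3. Over all genes tested the shares were 78.8%, 76% and 80.7%. The genes were called on these same arrays, so their agreement within slides is no separate check.

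The transcripts of the drug's receptor and of the floxed gene were read first. Ppara read -0.11, -0.53, -0.16 and -0.26 on control diet and -0.022, -0.081, -0.28 and -0.19 on Wy-14643, with overlapping groups, and did not pass (log2 change 0.12, SE 0.10, limma adjusted p = 0.503). Myc, the floxed transcription factor that drives growth, read 0.67, 0.38, 0.41 and -0.0029 on control diet and -0.021, 0.049 and -0.072 on the 3 arrays with a value on Wy-14643. The change did not pass (log2 change -0.38, SE 0.14, limma adjusted p = 0.0954), and the other probes for Myc gave -0.33 each. Where these probes lie relative to the floxed part is not given in the sources used here, so they do not check the deletion. Ppargc1a, a coactivator of PPARA, changed by -0.062 (SE 0.12, limma adjusted p = 0.798). Of 21 measured genes for PPARA, its partners and coregulators, 3 were higher and 3 lower, and the largest change was in Lpin1, which makes diacylglycerol from phosphatidate and also acts as a coactivator of PPARA. Lpin1 read 0.59, 0.76 and 1.8 on the 3 arrays with a value on control diet and -1.43, -0.72, -1.65 and -2.3 on Wy-14643, with no overlap (log2 change -2.57, SE 0.38, limma adjusted p = 0.000702), and its other probes changed by -2.76 and -2.77. Nrip1, a corepressor of nuclear receptors, rose by 0.56, with overlapping groups.

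The 15 largest rises and 15 largest falls are ranked among called genes with a symbol, at least 3 values in each group and no overlap. Genes outside this rule are not ranked, among them a change of 5.254 in the omega-hydroxylation list and of -3.165 in the complement list. Among these 15 rises were genes that handle fatty acids and lipid droplets, beside genes of other kinds. Cyp4a14, which hydroxylates the omega end of fatty acids, read -1.88, -2.82, -2.74 and -3.91 on control diet and 2.41, 1.92, 1.7 and 1.49 on Wy-14643, a 26.3-fold difference (log2 change 4.72, SE 0.33, limma adjusted p = 1.6e-06). Its close relatives Cyp4a31 and Cyp4a12a rose by 3.91 and 3.61, though copies this alike may share signal between probes. Acot1, a cytosolic thioesterase that releases fatty acids from coenzyme A, read -3.09, -2.97 and -3.63 on the 3 arrays with a value on control diet and 1.36, 0.81, 0.83 and 0.90 on Wy-14643 (log2 change 4.2, SE 0.18, limma adjusted p = 2.39e-07). Drug array 1 was the highest of its group for Acot1, and all drug arrays lay far above all control arrays. Ehhadh, the bifunctional enzyme of peroxisomal beta-oxidation, rose by 3.68 (SE 0.13, limma adjusted p = 2.59e-08).

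Droplet proteins stood next to the oxidation enzymes. G0s2, an inhibitor of the droplet lipase ATGL, read -4.08, -2.39 and -2.69 on the 3 arrays with a value on control diet and 0.77, 0.71 and 0.63 on the 3 arrays with a value on Wy-14643 (log2 change 3.76, SE 0.35, limma adjusted p = 0.0001). Cidec, which makes droplets fuse and grow, read -3.43, -3.07, -3.51 and -3.53 on control diet and -0.0034, 0.44, 0.43 and 0.33 on Wy-14643 (log2 change 3.68, SE 0.13, limma adjusted p = 1.97e-08). Hsd17b11, a dehydrogenase found on droplets, read -2.46, -2.61, -2.2 and -2.53 on control diet and 0.85, 1.21, 0.89 and 0.91 on Wy-14643 (log2 change 3.42, SE 0.10, limma adjusted p = 7.06e-09). For all 3 genes every drug array was above every control array. Mgll, the lipase that finishes the breakdown of triglyceride, rose by 2.71 as well, so that a lipase inhibitor, a fusion protein and a lipase were raised in the same livers.

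The remaining strong rises have other known roles. Ly6d, a surface protein anchored by lipid, read -3.39, -2.89, -2.91 and -3.78 on control diet and 0.25, 0.65, 0.41 and 0.63 on Wy-14643 (log2 change 3.73, SE 0.18, limma adjusted p = 1.56e-07). Krt23, an epithelial keratin, read -2.77, -1.92, -2.8 and -3.41 on control diet and 0.15, 1.06, 0.62 and 0.64 on Wy-14643 (log2 change 3.34, SE 0.27, limma adjusted p = 4.06e-06). Lamb3, a chain of basement membrane laminin, rose by 3.62, with control array 4 below the other control arrays at -3.9. Cox6b2, the testis form of a cytochrome oxidase subunit, rose by 3.57. Retsat, which saturates retinol, rose by 3.56, and Spon2, a secreted matrix protein, by 3.36. The other probe for Spon2, nearly as bright but with values on fewer arrays, gave 1.78. Gadd45b, a growth arrest and stress response gene, read -3.9, -1.52, -2.58 and -3.4 on control diet and 0.69, 0.58, 0.82 and 0.27 on Wy-14643 (log2 change 3.44, SE 0.39, limma adjusted p = 7.28e-05). In all 15 of the largest rises, from 10.1-fold to 26.3-fold, the groups did not overlap, which the rule for naming them required.

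**Figure D1:**
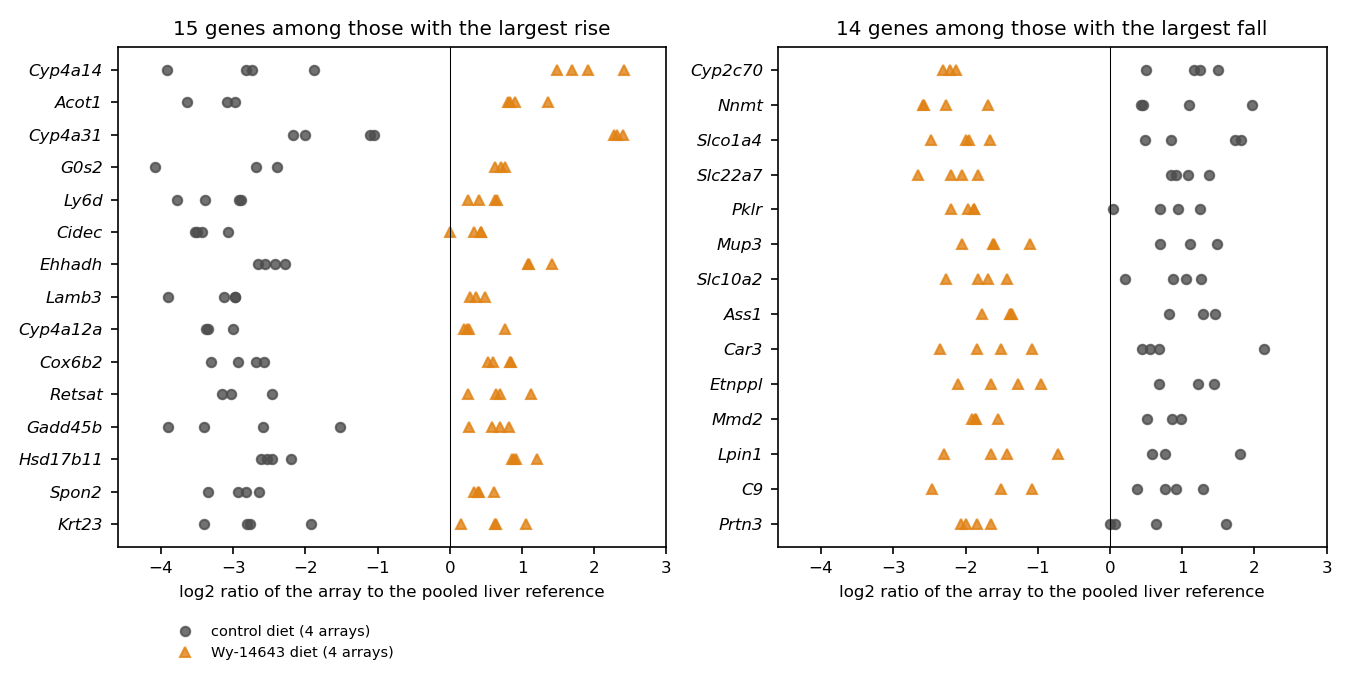
Log2 ratio of each array to the pooled liver reference (x axis) for the 15 genes with the largest rise (left) and 14 of the 15 with the largest fall (right) among genes with a symbol, values on at least 3 arrays of each diet and no overlap. Each circle is a control-diet array and each triangle a Wy-14643 array. Cyp4a14 has the largest difference between the group means, and control array 4 lies apart for Lamb3.

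The 15 largest falls were in genes of mixed roles, carriers and metabolic enzymes among them. Cyp2c70, the P450 that makes the muricholic bile acids of the mouse, read 0.50, 1.5, 1.16 and 1.25 on control diet and -2.21, -2.31 and -2.13 on the 3 arrays with a value on Wy-14643 (log2 change -3.32, SE 0.19, limma adjusted p = 7.18e-07). Nnmt, which methylates nicotinamide, read 0.43, 1.09, 0.46 and 1.97 on control diet and -2.58, -2.58, -2.27 and -1.69 on Wy-14643 (log2 change -3.27, SE 0.32, limma adjusted p = 1.97e-05). Slco1a4, an uptake carrier for organic anions, read 1.82, 0.85, 0.49 and 1.74 on control diet and -2.0, -2.47, -1.66 and -1.96 on Wy-14643 (log2 change -3.24, SE 0.29, limma adjusted p = 1.87e-05). Slc22a7, another organic anion carrier of the sinusoidal membrane, fell by 3.24, and Slc10a2, a sodium-dependent bile acid carrier, fell by 2.66. All drug arrays were below all control arrays for these genes.

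Pklr, the liver pyruvate kinase that ends glycolysis, read 1.25, 0.94, 0.047 and 0.70 on control diet and -1.97, -1.89, -1.89 and -2.2 on Wy-14643 (log2 change -2.72, SE 0.20, limma adjusted p = 2.03e-06). Ass1, an enzyme of the urea cycle, read 1.29, 0.82 and 1.45 on the 3 arrays with a value on control diet and -1.35, -1.37, -1.38 and -1.76 on Wy-14643 (log2 change -2.65, SE 0.16, limma adjusted p = 9.38e-07), with drug array 4 the lowest of all. Car3, a carbonic anhydrase abundant in mouse liver, read 2.14, 0.55, 0.67 and 0.45 on control diet and -2.36, -1.84, -1.51 and -1.08 on Wy-14643 (log2 change -2.65, SE 0.35, limma adjusted p = 0.00023). Control array 1 was the highest for Car3, and the other control arrays were still above the drug arrays. Etnppl, which breaks down phosphoethanolamine, fell by 2.6, C9, the last component of the membrane attack complex, fell by 2.52, and Mup3, a major urinary protein with many near-identical copies, fell by 2.69. Mmd2, a membrane protein, fell by 2.58 and Prtn3, a serine protease best known from neutrophils, fell by 2.46. The 15 largest falls ran from 5.51-fold to 9.98-fold, so the largest falls were smaller than the largest rises.

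Fatty acid entry and activation came first among the lists ordered by median change. Of 23 measured genes, 17 were higher and 2 lower, with a median change of 1.36 against 0.03 over all genes. Vldlr, a lipoprotein receptor, read -2.5, -1.74, -2.23 and -2.29 on control diet and 0.21, 0.99, 0.21 and 0.34 on Wy-14643 (log2 change 2.63, SE 0.19, limma adjusted p = 1.7e-06). Acsl1, which activates long-chain fatty acids with coenzyme A, rose by 2.41, Cd36, the fatty acid translocase, by 2.38 and Lpl, lipoprotein lipase, by 2.07. Of 16 genes for omega-hydroxylation and the steps after it, 10 were higher and 3 lower. Adh1 rose by 0.92. Its relative Adh4 fell by 0.69 with overlapping groups, and did not pass without slide 1 (-0.405, limma adjusted p = 0.084). Cyp4v3, another omega-hydroxylase, fell by 1.47, against the direction of the Cyp4a genes. With median centring and with Cy5 alone, 12 and 12 genes of the entry list and 8 and 8 of the omega-hydroxylation list were higher.

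In the peroxisome, 20 of 28 genes of beta-oxidation were higher and 2 lower (median 1.18). The median change was 0.56 within slide 1, 0.637 within slide 2 and 1.49 within slide 3. Over the 8 of these genes with a value on all 8 arrays, the median overlapped between diets. It was -0.197 to -0.085 on control arrays and -0.135 to -0.019 on drug arrays. Acaa1a, the thiolase, read -1.87, -2.82, -2.17 and -2.58 on control diet and 1.12, 0.85, 0.82 and 0.74 on Wy-14643 (log2 change 3.24, SE 0.17, limma adjusted p = 1.98e-07). Its other probes gave 3.04 and 1.6. Crat, which passes acyl groups to carnitine, rose by 2.57, and Acot8, a peroxisomal thioesterase, by 1.77. Pecr, a reductase that belongs to chain elongation, went the other way and fell by 1.16. The list of peroxins, which import proteins and divide the organelle, and of antioxidant peroxisomal proteins moved less. Of its 23 genes, 11 were higher and none lower (median 0.33). Pex11a, which divides peroxisomes, read -2.15, -2.43, -1.88 and -2.12 on control diet and 0.66, 0.51, 0.43 and 0.52 on Wy-14643 (log2 change 2.67, SE 0.11, limma adjusted p = 2.59e-08). Pex16 rose by 1.19 and Pex14 by 0.91, so the division factor changed more than the import factors named here.

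In mitochondria, 18 of 26 genes of the carnitine shuttle and beta-oxidation were higher and none lower (median 1.29). Cpt1b, the form of carnitine palmitoyltransferase typical of muscle, read -3.11, -2.1, -2.93 and -3.47 on control diet and 0.058, 0.17 and 0.11 on the 3 arrays with a value on Wy-14643 (log2 change 3.01, SE 0.24, limma adjusted p = 8.56e-06). Acot2, the mitochondrial relative of Acot1, rose by 2.18, Hadhb, part of the trifunctional protein, by 1.99, and Eci1, an enoyl isomerase, by 1.86. Of 19 genes of ketone body synthesis and fuel switching, 8 were higher and 3 lower. Slc16a1, a carrier that exports ketone bodies, rose by 2.08. Ucp2, an inner membrane carrier, rose by 2.2 on its brightest probe, with 3.11 and 0.35 on the others, the last not passing. Bdh2, a dehydrogenase of hydroxybutyrate, fell by 1.62. With median centring and with Cy5 alone, 16 and 12 genes of the carnitine list and 16 and 16 of peroxisomal beta-oxidation were higher.

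Genes that build triglyceride and phospholipid rose beside those that burn fatty acids. Of 28 measured, 19 were higher and 1 lower (median 0.75), and of 25 lipid droplet and lipolysis genes 15 were higher and none lower (median 0.73). Mogat1, which adds a fatty acid to monoacylglycerol, read -1.87, -1.93, -2.2 and -2.23 on control diet and -0.057, 0.35, 0.27 and 0.49 on Wy-14643 (log2 change 2.32, SE 0.12, limma adjusted p = 1.98e-07). Its other probes gave 2.40 and 2.64. Lpcat3, which puts polyunsaturated chains into phosphatidylcholine, rose by 2.0, Pla2g6, a phospholipase, by 2.1, and Chpt1, which ends one route to phosphatidylcholine, by 1.69. The last step to triglyceride is shared by enzymes of unrelated sequence, and these moved in opposite directions. Dgat1 read -0.83, -0.67, -0.89 and -0.79 on control diet and -0.022, -0.16, 0.22 and -0.058 on Wy-14643 (log2 change 0.79, SE 0.092, limma adjusted p = 9.43e-05), and Dgat2 read 0.33, 0.13, 0.12 and 0.51 on control diet and -0.12, -0.40, -0.27 and -0.41 on Wy-14643 (log2 change -0.57, SE 0.11, limma adjusted p = 0.00269). Groups did not overlap for either. Dgat1 was named after its values were seen, as the counterpart of Dgat2, and the other probes for Dgat2 gave -0.41 and -0.31, which did not pass, nor did the mean of its probes (-0.45, limma adjusted p = 0.0572).

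Synthesis of fatty acids from sugar was split. Of 25 genes of lipogenesis, desaturation and elongation, 7 were higher and 7 lower (median -0.13). Acly, which makes cytosolic acetyl-CoA, read 1.37, 0.80 and 0.27 on the 3 arrays with a value on control diet and -0.84, -0.70, -1.1 and -1.0 on Wy-14643 (log2 change -1.72, SE 0.21, limma adjusted p = 0.000351), and Srebf1, the transcription factor of lipogenesis, fell by 0.71. Acacb, the mitochondrial acetyl-CoA carboxylase, rose by 0.97. Of 43 genes of glycolysis, glycogen and the pentose phosphate path, 7 were higher and 12 lower. Pygl, the liver glycogen phosphorylase, fell by 1.59, Fbp1, an enzyme of gluconeogenesis, fell by 1.37 and Gckr, the regulator of glucokinase, fell by 1.37, while Aldoa, an aldolase typical of muscle, rose by 0.69. The count of higher genes in this list was 4 without control array 3, drug array 2 or drug array 4, and 3 with the scanner's log ratios.

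The rise reached the mitochondrial machinery outside of fatty acid oxidation. Of 74 measured genes of the respiratory chain and ATP synthase, 38 were higher and none lower (median 0.31), and 72 of the 74 changes were above 0. Of 73 mitochondrial ribosomal proteins, 43 were higher and none lower (median 0.33). Of 19 genes of the tricarboxylic acid cycle 11 were higher and none lower (median 0.38), and of 35 genes of import and dynamics 16 were higher and 1 lower (median 0.29). That 1 lower gene gave -0.62 on the probe used and 0.33 on its other probe, and both passed. Over the 7 cycle genes with a value on all 8 arrays, the median overlapped between diets, at -0.425 to -0.115 on control arrays and -0.222 to -0.022 on drug arrays. For the 46 mitochondrial ribosomal genes with a value on all 8 arrays, the median ratio was -0.24, -0.26, -0.29 and -0.30 on the control arrays and -0.03, 0.07, 0.005 and 0.09 on the drug arrays. The groups did not overlap.

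One subunit stood out in size. Ndufab1, the mitochondrial acyl carrier protein that is also part of complex I, read -1.73, -1.75 and -1.71 on the 3 arrays with a value on control diet and 0.23, 0.42, 0.57 and 0.57 on Wy-14643 (log2 change 2.18, SE 0.10, limma adjusted p = 1.98e-07), and its other probe gave 2.05. The next among those with at least 3 values in each group, Ndufs7 and Ndufb5, both of complex I, rose by 0.87 and 0.86. Mrpl15, of the large mitochondrial ribosomal subunit, read -0.36, -0.57, -0.69 and -0.54 on control diet and -0.22, 0.093, 0.023 and 0.20 on Wy-14643 (log2 change 0.57, SE 0.10, limma adjusted p = 0.0023). Hspd1, the mitochondrial chaperonin, rose by 1.04, Tomm40, the pore of the outer membrane, by 0.75 and Mfn2, which fuses mitochondria, by 0.59. Slc25a10, the dicarboxylate carrier, rose by 1.13.

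The counts for these small mitochondrial changes moved with single arrays and with scaling. With the scanner's own log ratios, 20 mitochondrial ribosomal, 25 respiratory chain and 6 cycle genes were higher, and without control array 4 or drug array 4 the mitochondrial ribosomal count was 28. Cytosolic ribosomal proteins did not move with the mitochondrial ones as a list: of 79 measured, 5 were higher and 2 lower, shares under the background, with a median of 0.09. Without control array 3, 9 of them were higher. The median over the 28 of these genes on all 8 arrays overlapped between diets, at -0.26 to 0.007 on control arrays and -0.08 to 0.10 on drug arrays. Of 47 tRNA synthetases and translation factors, 6 were higher and 1 lower (median 0.10). The difference between the mitochondrial and the cytosolic lists was not itself tested.

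The proteasome, which degrades ubiquitin-tagged proteins, was the list with the largest share of rises. Of 46 measured genes 38 were higher and 3 lower, and the 3 that were lower are exactly the inducible catalytic subunits, Psmb8, Psmb9 and Psmb10, which interferon gamma exchanges for the constitutive ones to form the immunoproteasome. Without these 3, 38 of 43 were higher and none lower, with a median of 0.84, and the 3 had a median of -1.28. Over the 16 other subunits and factors with a value on all 8 arrays, the median ratio was -0.55, -0.48, -0.54 and -0.54 on the control arrays and 0.30, 0.20, 0.24 and 0.18 on the drug arrays, so the control arrays were alike and every drug array was higher.

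Psmb5, the constitutive catalytic subunit with chymotrypsin-like activity, read -0.87, -0.93, -0.88 and -0.92 on control diet and 0.35, 0.23, 0.32 and 0.17 on Wy-14643 (log2 change 1.17, SE 0.07, limma adjusted p = 4.96e-07). Psmb8, which replaces Psmb5 in the immunoproteasome, read 0.89, 0.82, 0.52 and 0.64 on control diet and -0.98, -0.55, -0.83 and -0.80 on Wy-14643 (log2 change -1.51, SE 0.14, limma adjusted p = 1.14e-05), and its other probe gave -1.21. These exchange partners thus moved in opposite directions. Psmb9 read 1.77, 0.74, 0.15 and 0.28 on control diet and -0.56, -0.53, -0.81 and -0.30 on Wy-14643 (log2 change -1.28, SE 0.28, limma adjusted p = 0.00798). Psmb10 read 0.77, 0.79, 0.59 and 0.59 on control diet and -0.65, -0.54, -0.66 and -0.55 on Wy-14643 (log2 change -1.28, SE 0.084, limma adjusted p = 1.01e-06). For each of the 4 subunits the diets did not overlap, and Psmb5 went up on the same arrays on which Psmb8, Psmb9 and Psmb10 went down. Psmb6, another constitutive catalytic subunit, rose by 0.85 (SE 0.07, limma adjusted p = 5.71e-06). The third, Psmb7, had a value on 1 array of each diet, so it has no spread of its own, and its call was lost with only these 8 arrays in the fit (limma adjusted p = 0.0823) and with the scanner's log ratios (limma adjusted p = 0.221). Both were named after their values were seen. Among the rest, Psmd4, a ubiquitin receptor of the regulatory particle, rose by 1.79 (SE 0.065, limma adjusted p = 1.97e-08), Psma5, of the outer ring, by 1.4 (SE 0.075, limma adjusted p = 2.26e-07) and Psma7, of the same ring, by 1.07.

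The inducible subunits also belong to the list for antigen presentation and interferon signalling, in which 32 of 41 measured genes were lower and 2 higher (median -0.64). Without the 3 subunits it was 29 of 38 lower and 2 higher, with a median of -0.54. The median over the 27 of these with a value on all 8 arrays was 0.42, 0.37, 0.32 and 0.24 on the control arrays and -0.39, -0.37, -0.39 and -0.13 on the drug arrays. Drug array 4 was the least low, and still under every control array. Oasl1, an interferon-induced antiviral protein, read 1.26, 0.30, -0.10 and 0.27 on control diet and -0.84, -0.90, -0.80 and -0.58 on Wy-14643 (log2 change -1.21, SE 0.22, limma adjusted p = 0.00238). The 2 genes that rose were H2-Q10, a secreted class I molecule made mainly by the liver (0.44), and H2-Q1 of the same cluster (0.73, from 2 control and 3 drug arrays, named because it is the other rise). With outlier spots kept, neither passed (limma adjusted p = 0.101 for H2-Q10 and 0.212 for H2-Q1). Class I genes are alike in sequence, and their probes may share signal.

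Promoters of the interferon genes that fell are shown because the interferon-stimulated response element, a repeat of GAAA read by STAT and IRF factors, can be looked for in letters. The form searched was GAAA, any 2 bases and GAAAC, on either strand, in the RefSeq promoter table of build GRCm38.p6, in windows from 250 bases before a gene's start to 50 after it. Both the form and these genes were chosen after the values were seen, and neighbouring matches can overlap. The letters were found in 0.819% of all promoters and for 1.01% of tested genes with a promoter entry. They were found for 9 of 26 interferon-list genes that were lower and have an entry (34.6%), for 1 of 5 that did not pass, and for 0 of 39 proteasome genes. Over all 32 measured interferon-list genes with an entry it was 10 (31.2%), close to the share in those that were lower. The share thus goes with the list and does not speak to the fall. A match describes the sequence and does not show a bound site. The stretches below run 5′ to 3′ on the gene's strand from 20 bases before the first match to the base before the start, with the matched letters in capitals, which read GTTTC, 2 bases and TTTC where the match is on the other strand. They belong to the 4 genes with a match that fell most and had at least 3 values in each group, on chr4:156200819-156200916 (minus strand) for Isg15, chr19:34583352-34583528 (plus) for Ifit3, chr3:142559978-142560043 (plus) for Gbp3 and chr19:34640764-34640888 (plus) for Ifit1.
Isg15: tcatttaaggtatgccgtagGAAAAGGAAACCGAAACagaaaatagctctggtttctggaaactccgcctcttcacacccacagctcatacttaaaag
Ifit3: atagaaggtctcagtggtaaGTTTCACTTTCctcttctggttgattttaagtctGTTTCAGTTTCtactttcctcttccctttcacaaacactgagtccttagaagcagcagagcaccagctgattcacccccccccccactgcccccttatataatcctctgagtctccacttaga
Gbp3: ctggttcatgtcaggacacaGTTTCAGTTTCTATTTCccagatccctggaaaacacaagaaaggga
Ifit1: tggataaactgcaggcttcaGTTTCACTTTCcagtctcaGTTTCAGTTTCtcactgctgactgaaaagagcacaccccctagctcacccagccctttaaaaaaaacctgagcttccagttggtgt

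Each of these promoters holds 2 matches. Isg15, a ubiquitin-like protein, read 1.53, 0.51 and 0.34 on the 3 arrays with a value on control diet and -0.44, -0.57 and -0.012 on the 3 arrays with a value on Wy-14643 (log2 change -1.13, SE 0.29, limma adjusted p = 0.0237). Isg15 no longer passed without drug array 2 or drug array 3 (limma adjusted p = 0.0758 and 0.0854). Ifit3, which binds viral RNA with its relatives, read 1.01, 0.46, 0.55 and 0.19 on control diet and -0.43, -0.78, -0.67 and -0.28 on Wy-14643 (log2 change -1.09, SE 0.18, limma adjusted p = 0.000975). Gbp3, a guanylate-binding protein, read 0.74, 0.58, 0.39 and 0.24 on control diet and -0.49, -0.56, -0.68 and -0.24 on Wy-14643 (log2 change -0.98, SE 0.12, limma adjusted p = 0.000162). Ifit1 fell by 0.83 (SE 0.15, limma adjusted p = 0.00229). Control array 1 was the highest and drug array 4 the highest of its diet for all 4 genes, and the diets did not overlap. For the PPARA response element in its strict form, AGGTCA repeated after 1 base, 13 of 32851 promoters held the letters (0.0396%), and none of the 10 of the 15 strongest rises with an entry did, so no promoter of a risen gene is shown. With letters this rare, 10 genes without a match cannot show that the element is lacking.

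**Figure D2:**
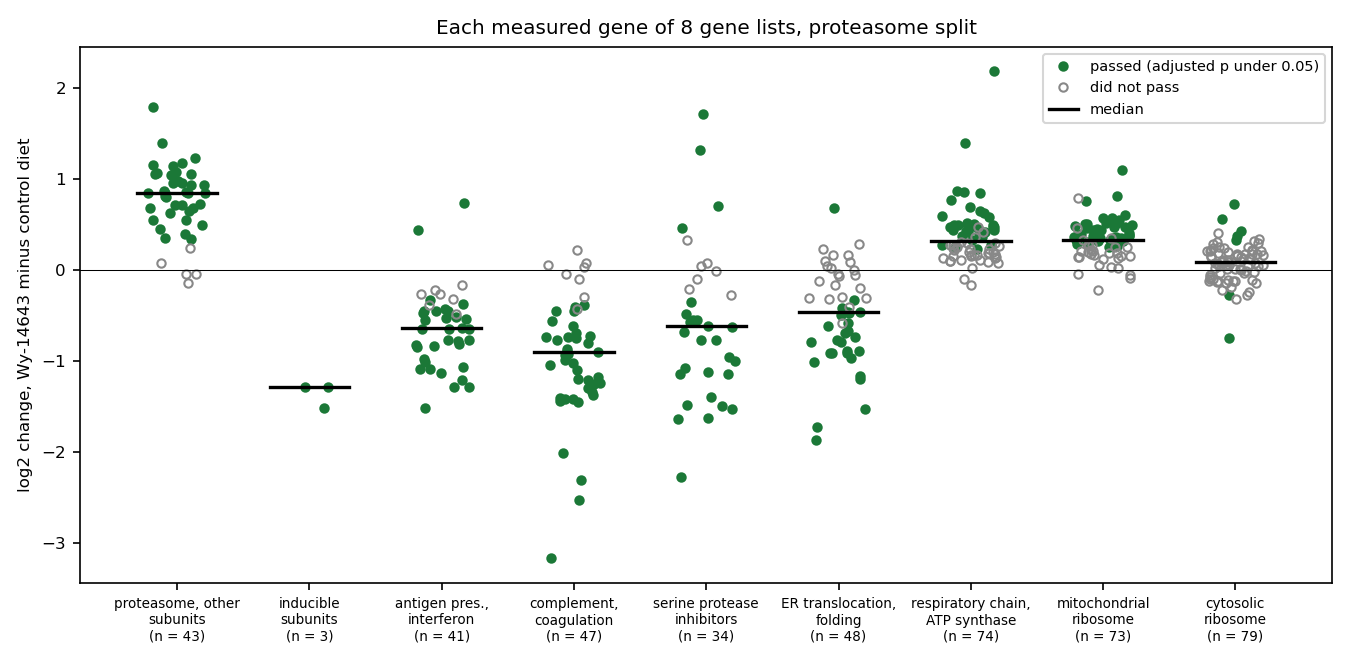
Log2 change on Wy-14643 against control diet (y axis) for every measured gene of 8 lists, with the proteasome split into its 3 inducible subunits, which also appear in the antigen presentation list, and the other 43. Filled points passed at a limma adjusted p under 0.05, open points did not, and bars are medians. The medians are 0.84 for the other proteasome genes, -1.28 for the inducible subunits, 0.33 for the mitochondrial and 0.09 for the cytosolic ribosome.

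Several markers of macrophages were lower on Wy-14643, as were most interferon and antigen presentation genes. Of 10 measured markers of Kupffer cells and other macrophages, 6 were lower and none higher (median -0.62), all 10 changes were below 0, and all 10 were well above background on every array of both diets. With median centring and with Cy5 alone, 0 and 1 of them were lower. Over the 4 of them with a value on all 8 arrays the median was -0.10, 0.69, 0.69 and 0.26 on control arrays and -0.25, -0.40, -0.25 and -0.20 on drug arrays. Control array 1 was the lowest control array for these markers and the highest for the interferon list. Among the other control arrays, control array 4 was the lowest for both. Of 9 stellate cell markers 4 were lower, of 9 endothelial markers 3 and of 8 lymphocyte markers 2, none higher, and of 7 neutrophil markers none passed. Their part in the fall of the interferon genes was not tested. In whole liver, fewer cells of a type and less RNA per cell cannot be told apart. The labelled tissue showed its own markers: all 7 measured hepatocyte markers were well above background on every array, with 3 of the 7 lower on the drug and none higher. Alb, serum albumin, read 1.57, 1.71, 1.77 and 1.48 on control diet and 0.60, 0.48, 0.088 and 0.091 on Wy-14643 (log2 change -1.31, SE 0.12, limma adjusted p = 1.61e-05).

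Among genes for proteins that the hepatocyte secretes into plasma, those of complement and coagulation had the largest share of falls. Of 47 genes of complement, lectins and coagulation, 39 were lower and none higher, with a median of -0.90. Over the 22 with a value on all 8 arrays the median was 0.24, 0.41, 0.58 and 0.58 on control arrays and -0.37, -0.26, -0.31 and -0.35 on drug arrays. F11, coagulation factor XI, read 0.59, 0.77, 0.83 and 1.06 on control diet and -1.5, -1.45, -1.58 and -1.42 on Wy-14643 (log2 change -2.3, SE 0.10, limma adjusted p = 7e-08). C8b, which joins C9 in the membrane attack complex, fell by 2.01 and F7, which starts the extrinsic path, fell by 1.41.

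The serine protease inhibitors, a family that checks these same cascades, fell with them, with exceptions. Of 34 measured, 23 were lower and 4 higher (median -0.62), and 6 and 12 were lower with median centring and with Cy5 alone. Itih4, a heavy chain of the inter-alpha-trypsin inhibitor family, read 0.27, 1.26, 0.60 and 0.80 on control diet and -0.31, -1.2, -1.23 and -0.85 on Wy-14643 (log2 change -1.63, SE 0.22, limma adjusted p = 0.000255). Serpina6, the carrier of corticosteroids, fell by 1.49, Serpina1c, an antitrypsin with near-identical copies, fell by 1.53, and Serpina3m fell by 1.63. Against them, Tfpi2, an inhibitor of tissue factor path proteases, read -1.03, -0.68, -0.71 and -0.86 on control diet and 0.41, 0.49 and 0.60 on the 3 arrays with a value on Wy-14643 (log2 change 1.32, SE 0.13, limma adjusted p = 3.39e-05). Of 34 other carriers and plasma proteins 17 were lower and 1 higher, and of 30 apolipoproteins and lipoprotein genes 12 were lower and 2 higher. Apoc3, which slows the clearance of triglyceride-rich lipoproteins, fell by 2.27, and Lipg, an endothelial lipase, rose by 1.07.

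Many genes of the machinery that loads and folds secreted proteins were lower on the same arrays. Of 48 genes of translocation, folding and glycosylation in the endoplasmic reticulum, 26 were lower and 1 higher (median -0.46), and of 35 genes of vesicle traffic 11 were lower and 3 higher. Over the 21 of the first list with a value on all 8 arrays the median was -0.20, 0.18, 0.11 and 0.18 on control arrays and -0.40, -0.30, -0.22 and -0.34 on drug arrays, so control array 1 lay nearest the drug arrays. Sec61a1, the channel through which new proteins enter, read -0.02, 0.43, 0.32 and 0.39 on control diet and -0.71, -0.81, -0.54 and -0.68 on Wy-14643 (log2 change -0.96, SE 0.10, limma adjusted p = 4.49e-05). Its other probes gave -0.71 and -0.44, the last not passing. Manf, a secreted factor of the endoplasmic reticulum stress response, read 1.15, 0.97 and 0.97 on the 3 arrays with a value on control diet and -0.80, -0.49 and -0.79 on the 3 arrays with a value on Wy-14643 (log2 change -1.72, SE 0.17, limma adjusted p = 0.000157). Xbp1, the transcription factor that raises many of these genes, fell by 0.98.

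Within the traffic list, paired forms of one coat protein parted. Sec23b, of the COPII coat, read 0.078, 0.36, 0.0053 and 0.48 on control diet and -0.58, -0.70, -0.65 and -0.73 on Wy-14643 (log2 change -0.90, SE 0.12, limma adjusted p = 0.000244), and Sec23a read -0.27, -0.40, -0.43 and -0.10 on control diet and -0.043, 0.38, 0.45 and 0.27 on Wy-14643 (log2 change 0.56, SE 0.13, limma adjusted p = 0.00894). Neither overlapped between diets, and the second probe of each gave the same direction, at -1.03 for Sec23b and 0.50 for Sec23a. Sar1b, the small GTPase of the coat that large lipoprotein particles need, rose by 0.89, and Tmed5, a cargo receptor, by 1.58, while its relatives fell, Tmed3 with -0.96 and Tmed9 with -0.83, and Lman1, the receptor for coagulation factors, fell by 0.92. The count of lower genes in the traffic list was 7 with the scanner's log ratios or without control array 4 and 6 without drug array 4. With median centring and with Cy5 alone, 0 and 2 traffic genes and 2 and 8 translocation and folding genes were lower. In the translocation and folding list the only rise was that of Stt3b, a catalytic subunit of the oligosaccharyltransferase (0.68).

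**Figure D3:**
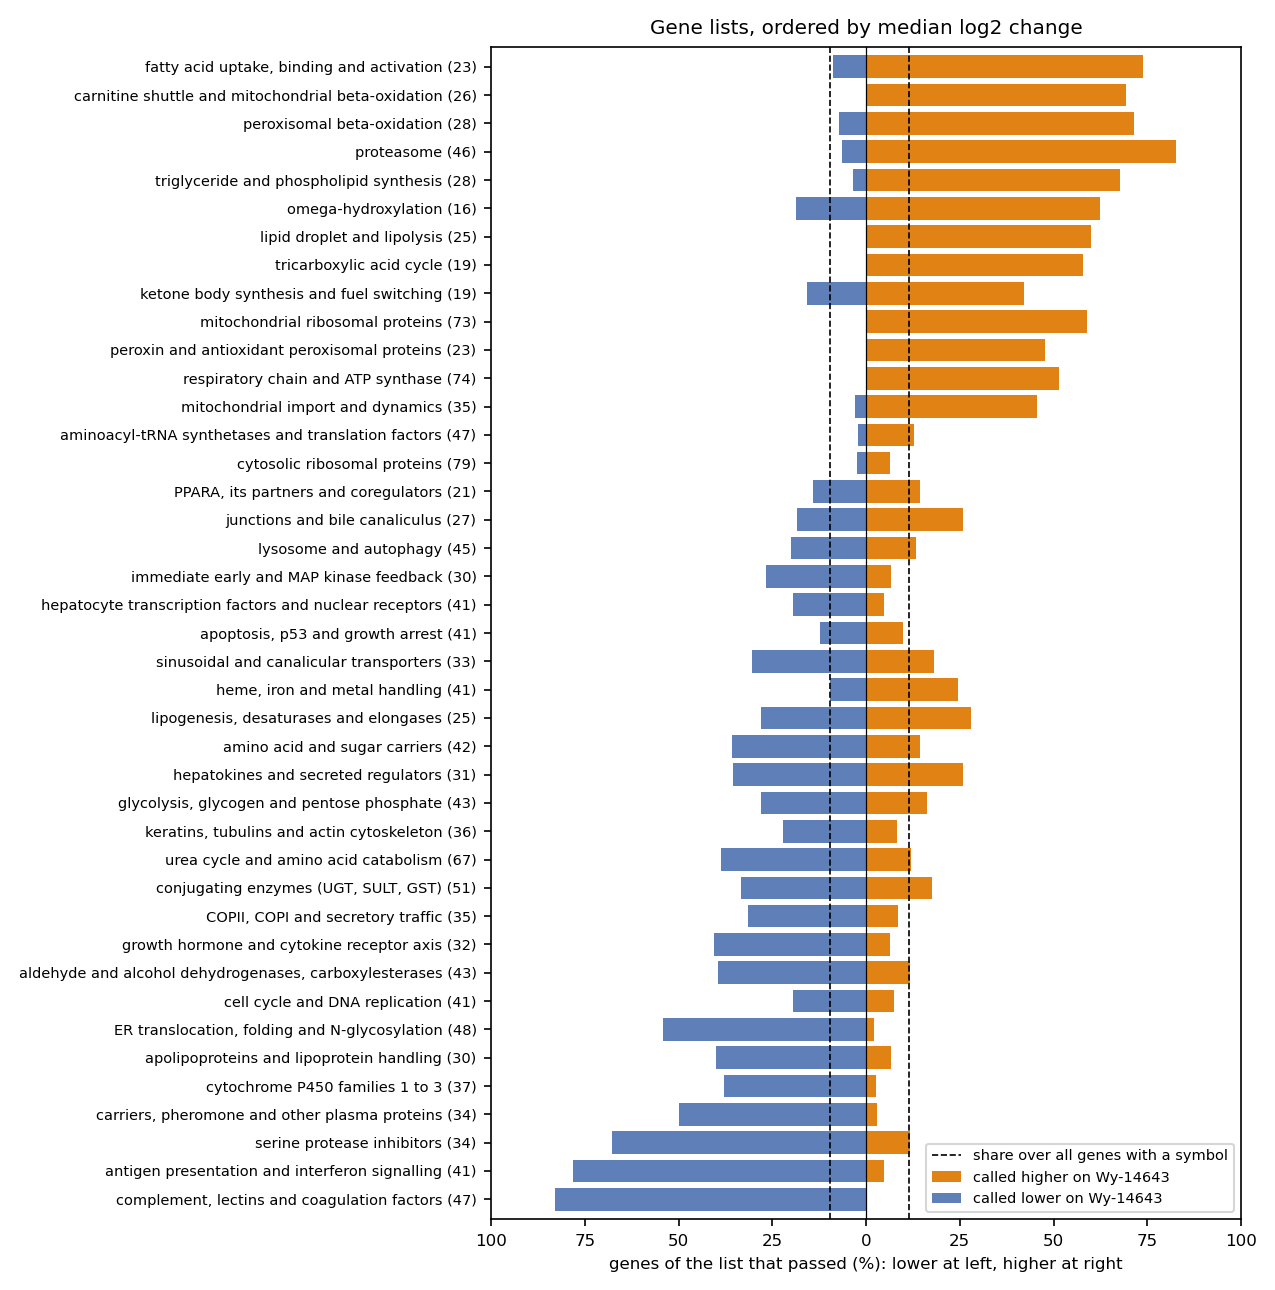
Share of the measured genes of each of 41 lists that passed at a limma adjusted p under 0.05, higher on Wy-14643 to the right and lower to the left, ordered by median change, with the number measured in parentheses. The dashed lines are the shares over all genes with a symbol, 11.5% higher and 9.72% lower. Complement and coagulation, with 39 of 47 lower, and the proteasome, with 38 of 46 higher, have the longest bars.

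Signals that the liver sends out moved both ways. Of 31 hepatokines and secreted regulators, 8 were higher and 11 lower. Fgf21, a fasting hormone and known target of PPARA, read -1.52, -0.93, -0.38 and -1.85 on control diet and 0.51, 0.62, 0.24 and 0.81 on Wy-14643 (log2 change 1.71, SE 0.25, limma adjusted p = 0.000548), and its dimmer probe gave 0.40, which did not pass. Vnn1, a pantetheinase, rose by 3.19, and Inhbe, the activin E subunit, by 1.03, while Inhba, the activin A subunit, fell by 1.12. Ahsg, fetuin-A, read 1.78, 1.62 and 1.72 on the 3 arrays with a value on control diet and -0.089, -0.31 and -0.092 on the 3 arrays with a value on Wy-14643 (log2 change -1.87, SE 0.12, limma adjusted p = 3.21e-06). Selenop, the selenium carrier, fell by 1.2.

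The receptors by which the liver reads growth hormone and cytokines were lower more often than higher. Of 32 genes 13 were lower and 2 higher (median -0.25). Il6ra, the interleukin-6 receptor, read 0.075, 0.32, 0.30 and 1.29 on control diet and -0.74, -0.48, -0.70 and -0.97 on Wy-14643 (log2 change -1.22, SE 0.22, limma adjusted p = 0.00203). Stat3, its transcription factor, read -0.011, 0.83, 0.20 and 0.49 on control diet and -0.64, -0.50, -0.50 and -0.58 on Wy-14643 (log2 change -0.93, SE 0.15, limma adjusted p = 0.000903). Cish, an early target of growth hormone signalling, fell by 1.36. Lepr, the leptin receptor, rose by 0.55. Of 41 hepatocyte transcription factors and nuclear receptors 2 were higher and 8 lower. Esr1, the estrogen receptor, read 0.61, 0.32, 0.68 and 1.07 on control diet and -0.82, -0.93, -0.65 and -0.62 on Wy-14643 (log2 change -1.43, SE 0.14, limma adjusted p = 2.71e-05). Onecut1 fell by 0.94 and Zbtb20 fell by 0.65, both regulators of liver genes, and Nr1i3, the xenobiotic receptor CAR, rose by 0.72.

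Enzymes that clear drugs and hormones were lower more often than higher. Of 37 P450 genes of families 1 to 3, 14 were lower and 1 higher. Of 51 conjugating enzymes 17 were lower and 9 higher, and of 43 aldehyde and alcohol dehydrogenases and carboxylesterases 17 were lower and 5 higher. With median centring and with Cy5 alone the lower counts were 7 and 7, 10 and 8, and 5 and 8. Sult1a1, a sulfotransferase of phenols, read 0.97, 0.91 and 1.13 on the 3 arrays with a value on control diet and -0.98, -1.58 and -1.22 on the 3 arrays with a value on Wy-14643 (log2 change -2.26, SE 0.15, limma adjusted p = 9.66e-06). Among the glucuronosyltransferases Ugt2a3 fell by 2.28, and Ugt1a1, which conjugates bilirubin, rose by 0.82, a call lost with the slide as a block (0.607, limma adjusted p = 0.059). Mgst3, a membrane glutathione transferase, rose by 1.45. Akr1d1, a reductase of bile acid synthesis, fell by 1.59 and Aox3, an aldehyde oxidase, fell by 2.18.

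Among transporters, several uptake carriers for organic anions fell and some efflux pumps rose. Of 33 carriers of the sinusoidal and canalicular membranes 10 were lower and 6 higher. Slco1a1, an uptake carrier like Slco1a4, read 0.53, 0.74, 1.49 and 1.24 on control diet and -1.82, -1.25, -1.19 and -1.19 on Wy-14643 (log2 change -2.36, SE 0.24, limma adjusted p = 2.91e-05). Abcc4, an efflux pump of the basolateral membrane, read -1.71, -1.07, -1.21 and -1.48 on control diet and 0.58, 0.17, 0.25 and 0.42 on Wy-14643 (log2 change 1.72, SE 0.15, limma adjusted p = 9.16e-06), and its other probe gave 1.25. Abcb4, which moves phosphatidylcholine into bile, rose by 0.64. Of 42 amino acid and sugar carriers 15 were lower and 6 higher. The rises there include the mitochondrial carriers Slc25a42, for coenzyme A (1.74), and Slc25a33, for pyrimidine nucleotides (1.57), and the falls Slc37a4, for glucose-6-phosphate (-1.77).

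Of 67 genes of amino acid breakdown and the urea cycle, 26 were lower and 8 higher (median -0.23). Bhmt, which methylates homocysteine with betaine, fell by 2.25, Prodh, which starts proline breakdown, fell by 2.22, and Gls2, the liver glutaminase, fell by 2.13. Of 41 genes of heme, iron and metal handling 10 were higher and 4 lower. Slc39a5, a zinc importer, rose by 1.58, and Ftl1, the ferritin light chain, by 0.84.

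Lysosome and autophagy genes changed in both directions, at 6 higher and 9 lower of 45 (median 0.02). Map1lc3a, a coat protein of autophagosomes, read -1.21, -1.08 and -1.28 on the 3 arrays with a value on control diet and 0.16, 0.25, 0.46 and 0.49 on Wy-14643 (log2 change 1.53, SE 0.10, limma adjusted p = 2e-06). Psap, the precursor of the saposins, rose by 1.17 and Gaa, the lysosomal glucosidase, by 0.87. Ulk1, the kinase that starts autophagy, fell by 0.80, and so did the lysosomal enzymes Gusb (-0.66) and Lgmn (-0.59).

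Cell death genes gave calls near the background, and cell cycle genes were lower more often than higher. Of 41 genes of apoptosis, p53 and growth arrest 4 were higher and 5 lower. Besides Gadd45b, the risen ones were its relative Gadd45g (1.31, and 1.2 with a limma adjusted p = 0.054 without slide 1), the death receptor Fas (0.98) and Casp8, the caspase next to that receptor, which read -0.85, -0.72, -0.94 and -0.93 on control diet and 0.042, 0.083, 0.086 and -0.0034 on Wy-14643 (log2 change 0.91, SE 0.07, limma adjusted p = 3.22e-06). Phlda3, a p53 target, fell by 0.69. Of 41 cell cycle and replication genes 3 were higher and 8 lower. Their median change was -1.11 within slide 1, 0.0216 within slide 2 and -0.1 within slide 3. Over the 37 with a value on all 8 arrays the diets overlapped, with the median at 0.271 on control array 1 and -0.784 on drug array 1, both on slide 1, against -0.196 to 0.015 on the other control arrays and -0.256 to -0.13 on the other drug arrays. Without slide 1, 7 were lower. Cdkn1a, the p21 inhibitor of cyclin kinases, read -1.72, -1.38, -1.79 and -0.21 on control diet and 0.63, 0.38, 0.035 and -0.079 on Wy-14643 (log2 change 1.51, SE 0.30, limma adjusted p = 0.00385), with control array 4 close under the lowest drug array, and did not pass without slide 1 (1.11, limma adjusted p = 0.0585). Mcm10, which starts replication, fell by 1.82 (SE 0.16, limma adjusted p = 1.17e-05), and Cdc20, which triggers anaphase, read 0.99, 0.11, 0.092 and 0.11 on control diet and -1.09, -0.51, -0.72 and -0.43 on Wy-14643 (log2 change -1.01, SE 0.23, limma adjusted p = 0.00821), with control array 1 far above the other control arrays. Cdk4 rose by 0.48, a call lost with the scanner's log ratios (limma adjusted p = 0.0909).

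A few genes crossed the limit of detection between diets. Of these, 14 were well above background on all 4 control arrays and on no drug array, and 8 the other way. Stap1, a signalling adaptor of blood cells, read 0.80, 0.04, -0.085 and 0.30 on control diet and -0.48, -0.46, -0.28 and -0.41 on Wy-14643 and fell (log2 change -0.67, SE 0.16, limma adjusted p = 0.0128). Cdk1, the mitotic kinase, changed by -0.54 (SE 0.18, limma adjusted p = 0.0578) and Nuf2, of the kinetochore, by -0.40 (SE 0.17, limma adjusted p = 0.143), and neither passed. On the drug side Cxcr1, a chemokine receptor, changed by 0.61 (SE 0.26, limma adjusted p = 0.151), which did not pass either. One diet of each of these genes was not well above background, so the size of the change has no firm value there.

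Some genes differed more between arrays of one diet than between the diets. Saa2, an acute phase serum amyloid, read -2.39, 2.44, -1.74 and 0.0054 on control diet and -3.52, -3.48, -2.53 and 0.81 on Wy-14643, with control array 2 and drug array 4 high, and did not pass (log2 change -1.76, SE 1.05, limma adjusted p = 0.307). Mt2, a metallothionein, read -1.69, 2.49, -1.45 and 1.6 on control diet and -1.57, -1.94, -2.69 and -2.36 on Wy-14643 (log2 change -2.38, SE 0.77, limma adjusted p = 0.0547), and Mt1 read -0.97, 2.08, -0.84 and 1.46 on control diet and 0.44, -0.77, -1.81 and -0.70 on Wy-14643 (log2 change -1.15, SE 0.64, limma adjusted p = 0.274), both high on control arrays 2 and 4. S100a9, a protein of neutrophils and monocytes, read -0.92, 1.66, -0.30 and -0.68 on control diet and -1.13, -1.0, -0.93 and -0.71 on Wy-14643 (log2 change -0.88, SE 0.43, limma adjusted p = 0.204), again highest on control array 2. Apoa4, an apolipoprotein, passed in spite of a like spread, at 2.01, 0.90, -0.32 and -0.085 on control diet and -2.15, -1.05, -2.04 and -1.27 on Wy-14643 (log2 change -2.25, SE 0.43, limma adjusted p = 0.00293), with control array 1 highest. Cenpa, the centromere histone, read 0.54, 0.30, 1.15 and 0.93 on control diet and -0.63, 1.04, 0.97 and 1.02 on Wy-14643, with drug array 1 alone low, and did not pass (log2 change -0.13, SE 0.34, limma adjusted p = 0.847).

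**Figure D4:**
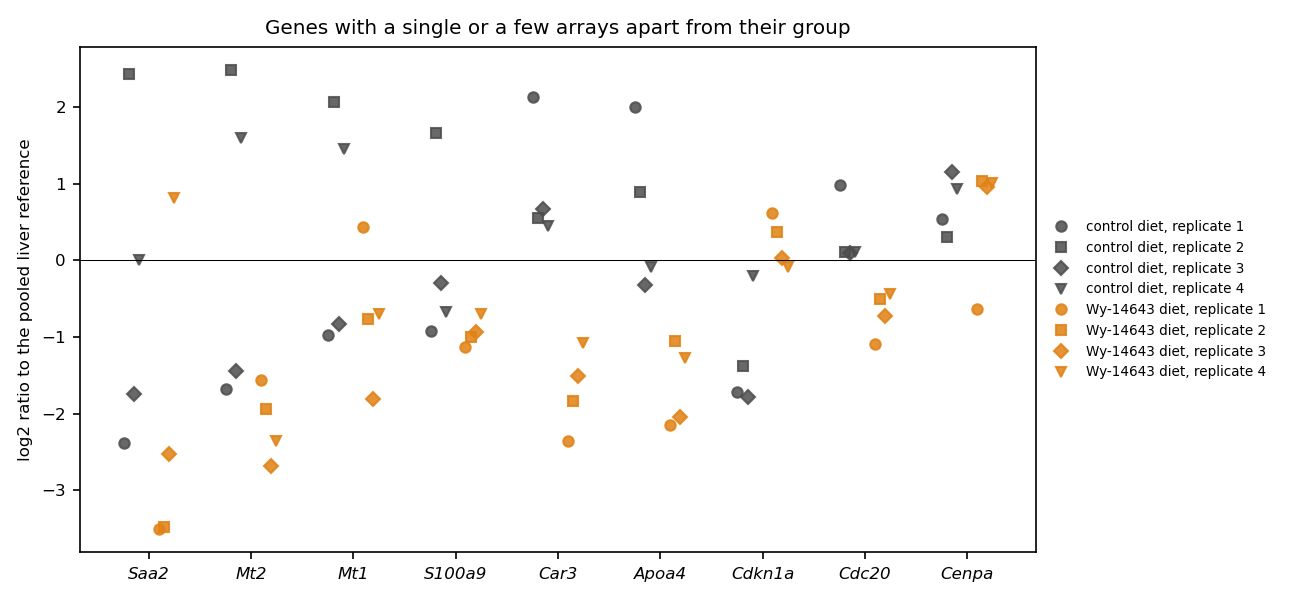
Log2 ratio to the pooled liver reference (y axis) of each control-diet (grey) and Wy-14643 (orange) array for 9 genes with 1 or a few arrays apart from their group, with 1 marker shape for each replicate number. Saa2 reaches 2.44 on control array 2 and 0.81 on drug array 4, and lies at or below 0.01 on the other 6 arrays.

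The MycF/F livers give the same contrast on separate arrays, though with a control of 1 pooled sample and the same reference RNA and slides. Of 24878 genes with an estimate in both genotypes, none passed for a difference between the drug effects (limma, smallest adjusted p = 1), and 541 had an unadjusted p under 0.05, a share of 2.17%. The median SE of that difference was 0.2, giving a median 95% half-width of 0.438, so for a typical gene a difference smaller than that lies within the interval around 0, and the result does not show that the effects are equal. The 15 largest rises changed by 2.54 to 4.48 in MycF/F livers and the 15 largest falls by -3.58 to -2.37, all 30 in the direction seen in MycF/F,ERT2-Cre livers. Retsat had the smallest p of the 30, with a rise of 3.56 here against 2.54 in MycF/F, a difference of 1.02 (SE 0.37, unadjusted p = 0.0171). Among all called genes with both estimates 3983 of 4061 had the same sign (98.1%), against 71.2% over all genes. Of the 79 measured cytosolic ribosomal genes, 18 had an unadjusted limma p under 0.05 for the difference, and no other list had more than 4. These 18 rest on the same 1 MycF/F control array, and the difference was not tested for the list as a whole. Hsd3b5, a steroid dehydrogenase known from male mouse liver, had the smallest p of any gene with a symbol. Its signal was well above background on 3 control arrays and 0 drug arrays here. It changed by -0.32 here and by -1.95 in MycF/F, where it read 1.32 on the control array and -0.54, -0.81 and -0.54 on the drug arrays. The difference of 1.63 (SE 0.28, unadjusted p = 7.01e-05) had a limma adjusted p = 1 and rests on that 1 control array.

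**Figure D5:**
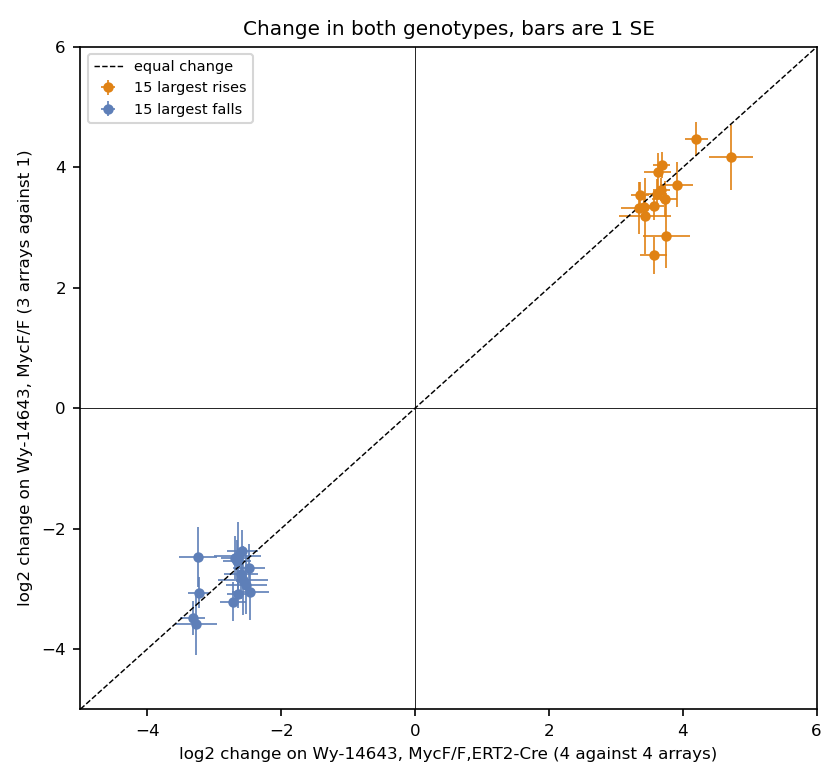
Log2 change on Wy-14643 in MycF/F,ERT2-Cre livers (x axis, 4 arrays against 4) and in MycF/F livers (y axis, 3 arrays against 1) for the 15 largest rises (orange) and falls (blue) of the first, with 1 SE on each side. All 30 points lie in the quadrants of equal sign, and Retsat, at 3.56 and 2.54, is the one whose difference had an unadjusted p under 0.05.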

How the data were processed

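Agilent 2-colour arrays were used, with liver RNA in Cy5 and pooled liver reference RNA in Cy3 per the labels, and no dye swap. The deposited files are scanner output of Agilent Feature Extraction 11.0.1.1, per the submitters' processing notes, with spot intensity of each channel on a linear scale and a log10 ratio of Cy5 over Cy3 per the file headers. The deposited log10 ratio was used only as an alternative, turned to log2. Annotation beyond the array's own is not given in the sources used here.

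Median intensities were corrected with normexp (offset 50), normalised by loess within each array and averaged over the spots of a probe, leaving out control and outlier spots (limma 3.58.1, R 4.3.3). A probe was kept if well above background in Cy5 on at least 3 of 12 arrays, which left 31846 of 41174. The brightest kept probe stood for a gene, named by its accession in RefSeq (GRCm38.p6). Among 4618 genes with several probes, 585 had 2 or more called, all one way in 575. limma fitted 4 group means over 12 arrays (8 residual degrees of freedom) with Benjamini-Hochberg adjustment over all genes, and a call is an adjusted p under 0.05. The number of arrays limits the precision: the median 95% half-width of a change was 0.233. A second comparison tested the difference between the drug effects of the genotypes. The scripts were tested on simulated data.

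The groups and gene lists were chosen with earlier results of these data known. Genes are named by rule: the 15 largest rises and 15 largest falls among called genes with at least 3 values in each group and no overlap, up to 4 called each way in each list with at least 3 values in each group, the most variable 8 in each diet, the 8 crossing background in each direction, the 8 with the smallest p between genotypes, and Ppara, Rxra, Ppargc1a, Myc, Alb and Krt23. Some genes these rules select are not reported here. Others are named in the text as chosen after their values were seen. Alternatives covered the arrays in the fit, slide and replicate blocks, background, scaling, filters, outlier spots, probe choice and leaving out each array or slide 1.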

Additional observations from a re-analysis of the deposited data

Results flagged for a closer look

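Of 262 groups of 4 arrays checked over the genes named above, 22 (8.4%) had an array whose gap to the next took up most of the group's range, past Dixon's 95% critical value, where chance gives about 1 in 20. On control diet, control array 1 was high for Car3 (2.14, the others 0.45 to 0.67), Cdc20 (0.992, the others 0.092 to 0.11) and Fbp1 (1.02), and low for Serpina1c (1.16), Tmed3 (-0.17) and Zbtb20 (0.23). Control array 2 was high for Nrip1 (-0.027, the others -0.61 to -0.56), and control array 3 for Abcb4 (-0.184) and Pex14 (-0.751). Control array 4 was low for Lamb3 (-3.9, the others -3.12 to -2.98) and Psmd4 (-1.58).

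Among drug arrays, array 1 was high for Acot1 (1.36, the others 0.81 to 0.90), Pex16 (0.319), Psmd4 (0.352) and Serpina1c (0.42), and low for Cenpa (-0.633, the others 0.97 to 1.04), Slco1a1 (-1.82) and Tmed3 (-0.833). Drug array 2 was high for Hsd17b11 (1.21), drug array 3 for Cyp4a12a (0.769) and drug array 4 for Mmd2 (-1.56), while drug array 4 was low for Ass1 (-1.76). Arrays 1 of both diets, which hold 13 of the 22, were on slide 1, the slide with the most outlier spots, and the part of the slide in them was not tested.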

How the results depend on the processing

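The count of 4125 calls (2295 higher, 1830 lower) stayed within 1.5 times under every alternative but 2, and genes called both in the fit and under an alternative kept their direction, save 1 of 1164 with Cy5 alone. That agreement is largely set by requiring a call in both. Called again or not, 165 of 4122 calls changed sign with Cy5 alone and 33 of 4125 with median centring. With the mean of a gene's probes 11 changed sign, with the scanner's log ratios 9, and under no other alternative more. Median centring of each array without loess gave 894 calls (607 higher, 287 lower), and the Cy5 channel alone 1287 (621 higher, 666 lower), and the cause was not tested. Under these settings the proteasome had 21 and 15 genes higher, complement and coagulation 11 and 19 lower, the interferon list 6 and 19 lower, mitochondrial ribosomal proteins 8 and 5 higher and the respiratory chain 14 and 7 higher, and 65 and 68 of 104 list counts moved by more than 1.5 times. Leaving out 1 array gave 3114 to 4052 calls, 1672 to 2305 higher and 1427 to 1824 lower, the fewest in all and the fewest higher without drug array 4, and the fewest lower without drug array 2. The slide as a block gave 4641 calls. The same replicate number did not pair the arrays (r of deviations 0.318, -0.0715, -0.0218 and 0.0905, with 1 control array of 4 closest to its own number, while each was closest to a drug array of its own slide, at 0.318, 0.127, 0.26 and 0.267), and the replicate block gave 4381 calls. For the difference between genotypes, 0 genes passed under every alternative run, with 413 to 1636 at an unadjusted p under 0.05 and a smallest adjusted p of 0.343. Of 170 genes named, Ppara turned with Cy5 alone (-0.0399), and Cenpa ran from -0.281 to 0.277 over the fits without 1 array, neither called. Median centring ended the call of 40 of the 170 and Cy5 alone that of 39, and H2-Q10 was also lost with the scanner's log ratios. Small changes, in dim genes among others, could be missed. The median 95% half-width of 0.233 is not adjusted over genes, so a typical call needed a larger change than that. Only 1.6% of the dimmest of 4 brightness classes passed.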
